A study of Homo sapiens with 6 samples.

Results

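The high mobility group genes HMGN1, HMGN2, HMGN3, HMGN4, HMGN5, HMGA1, HMGA2, HMGB1, HMGB2 and HMGB3 were examined in cells labelled as A549, a human lung adenocarcinoma line, after silencing of the long non-coding RNA FAM83H-AS1. These 10 genes are 10 of the 40173 rows of the deposited count table, matched by gene symbol. The family was taken up because HMGN1 was known to be lower after silencing in these same libraries, so the members' changes are given as a description: no p-value is printed for them, whether a limit was passed is stated only to place them among all genes, and nothing is read from how many of them changed. They fall into the HMGN (5 genes), HMGA (2 genes) and HMGB (3 genes) groups.

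RNA-Seq was performed on 3 libraries of A549 cells transfected with a negative control and 3 libraries of A549 cells transfected with an siRNA against FAM83H-AS1, all harvested the day after transfection. Both groups were the same line and no other agent was named. The keratins KRT8, KRT18 and KRT7 were abundant, with control means of 1860, 1314 and 1410 CPM, but several genes known to be high in A549 were near the floor. ALDH1A1 had 0 counts in 5 libraries and 2 in silenced replicate 3, AKR1B10 had 9 to 28 counts per library, KRT19 had 5 to 17 and CDH1 had 8 to 19. The libraries held 9738291 to 17742643 counts, with 21021 to 22202 genes detected. Nothing in the labels says that replicates came from separate cultures, so the spread between them may be technical. FAM83H-AS1 itself had 141, 185 and 292 counts in control libraries, as against 47, 48 and 75 in silenced ones, and its level fell to 30.6% of control (log2 fold change -1.70, standard error 0.15, adjusted p = 7.98e-05 by edgeR). Levels are in CPM, counts scaled to the library total with TMM factors. This adjusts for depth and, by an estimated factor per library, for differences in composition. Means are given ± SD (n = 3).

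High mobility group proteins are abundant non-histone chromatin proteins. The HMGN proteins bind the nucleosome core and compete with linker histone H1 for it, which loosens chromatin packing. The HMGA proteins hold AT-hooks that grip the minor groove of AT-rich DNA, are high in embryos and reappear in many carcinomas. The HMGB proteins bend DNA through HMG boxes, and HMGB1 can leave the cell and act as an alarm signal on receptors such as AGER (RAGE) and TLR4. HMGN1, HMGN2, HMGA1 and HMGB1 have many intronless pseudogenes in the genome, made from reverse-transcribed mRNA, and the count table has rows of its own for them.

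The sequences that bear on the counts are these pseudogene copies. For each of these 4 genes, the earliest stretch of 30 coding bases, in steps of a codon, that its most counted copy holds with at most 3 differences is shown beside the copy, 5′ to 3′ on the mRNA strand, with bases that differ from the gene in capitals (GENCODE release 29, GRCh38):
HMGN1: atgcccaagaggaaggtcagctccgccgaa
HMGN1P38: atgcccaagaggaaggtcagctccgccgaa
HMGN2: atgcccaagagaaaggctgaaggggatgct
HMGN2P5: atgcccaagagaaaggctgaaggggatgct
HMGB1: aagaagtgctcagagaggtggaagaccatg
HMGB1P5: aagaagtgctcagagaggtggaagaccatg
HMGA1: atgagtgagtcgagctcgaagtccagccag
HMGA1P3: atgagCgagtcgagctcgaagtccagccag

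The HMGN1, HMGN2 and HMGA1 stretches begin at the start codon, and the HMGB1 stretch begins at codon 43. The first 3 pairs have 0 differences and HMGA1P3 has 1. In HMGN1 the stretch runs from exon 1 into exon 2 of 6 (chr21:39348563-39348917, minus strand, introns included), whereas HMGN1P38 holds it without an intron on chromosome 15 (chr15:92711808-92712110 for the whole copy, plus strand). The HMGN2 stretch also crosses from exon 1 to exon 2 (chr1:26472613-26473497), and the HMGB1 stretch from exon 2 to exon 3 (chr13:30463347-30463554). The HMGA1 stretch lies within exon 2 (chr6:34240781-34240810). The copies HMGN2P5 (chr15:29730713-29730985), HMGB1P5 (chr3:22381819-22382929) and HMGA1P3 (chr12:110429959-110430282) lie on other chromosomes than their genes.

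HMGN1, a nucleosome-binding protein with a role in transcription-coupled repair, had the largest change of the 10 members. Its level was 86.7, 91.0 and 76.6 CPM in control libraries, as against 34.0, 36.5 and 38.1 CPM in silenced ones. All silenced libraries lay below all control libraries, and the gap between the groups was wider than the spread within either one. The mean went from 84.8 ± 7.41 to 36.2 ± 2.04 CPM, or 42.7% of control, a log2 fold change of -1.22 (standard error 0.09). HMGN1 (chr21:39342315-39349647, minus strand) was the member that passed both limits used for a call, an adjusted p under 0.05 by edgeR and a fold change over 2, in which 0.997% of the 15250 tested genes were called lower and 1.14% were called higher. It was called under each of 16 other settings, with a log2 fold change between -1.32 and -1.17.

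**Figure D1:**
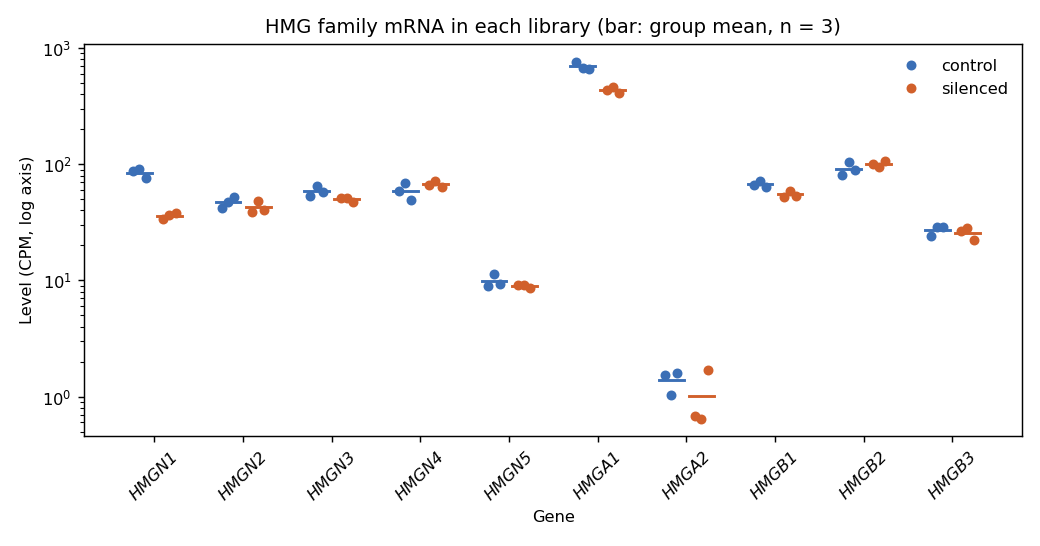
Level of each of the 10 genes in each library, in CPM on a log axis, with 3 control and 3 silenced libraries per gene and a bar at the group mean. The silenced points of HMGN1, HMGN3, HMGA1 and HMGB1 all sit below their control points, and in the other 6 genes the points of the groups overlap.

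The other HMGN genes differed less. HMGN2, a close relative of HMGN1 that is found in most cells, was at 42.0, 47.1 and 52.2 CPM in control and 38.5, 48.6 and 40.5 CPM in silenced libraries, and the groups overlapped (log2 fold change -0.15, standard error 0.11). HMGN3 was at 53.4, 64.7 and 58.2 CPM in control and 50.9, 51.0 and 47.7 CPM in silenced libraries. The HMGN3 groups did not overlap, although control replicate 1 lay only just above the highest silenced library (log2 fold change -0.24, standard error 0.09). HMGN4, a gene that arose from a reverse-transcribed HMGN2 mRNA, was at 58.4, 68.9 and 49.4 CPM in control and 66.7, 71.8 and 64.2 CPM in silenced libraries. Its value was higher after silencing, with overlapping groups (log2 fold change 0.20, standard error 0.11). HMGN5, an X-linked member with a long acidic tail, had 8.93, 11.5 and 9.32 CPM in control and 9.06, 9.04 and 8.68 CPM in silenced libraries, again with overlap (log2 fold change -0.15, standard error 0.15). Across the HMGN genes, 4 values were lower and 1 was higher in silenced cells, and the median log2 fold change was -0.15.

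The HMGA genes were at opposite ends of the family in level. HMGA1, the most abundant member, was at 762, 673 and 663 CPM in control and 435, 461 and 415 CPM in silenced libraries. The highest silenced library was far below the lowest control library. Its mean was 699 ± 54.7 CPM in control and 437 ± 23.4 CPM in silenced cells, 62.5% of control (log2 fold change -0.68, standard error 0.08), so the adjusted p was under 0.05 while the fold change stayed under 2. HMGA2, an oncofetal relative repressed by let-7 microRNAs, had only 15, 12 and 27 counts in control and 7, 7 and 23 counts in silenced libraries. At this depth a difference in HMGA2 was not detectable (log2 fold change -0.41, standard error 0.41), and the value was -1.06 without silenced replicate 3, which alone lay as high as the control libraries, and -0.18 without silenced replicate 2.

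Among the HMGB genes, HMGB1 was at 66.3, 71.5 and 63.5 CPM in control and 52.7, 59.3 and 53.0 CPM in silenced libraries. The HMGB1 groups did not overlap and the mean was 82.0% of control (log2 fold change -0.29, standard error 0.08). HMGB2, a relative that is high in dividing cells, was at 81.0, 104 and 90.0 CPM in control and 101, 95.1 and 107 CPM in silenced libraries. HMGB3, best known from blood progenitors, was at 24.1, 28.6 and 28.7 CPM in control and 26.5, 28.1 and 22.3 CPM in silenced libraries. In both genes the groups overlapped, with log2 fold changes of 0.14 for HMGB2 (standard error 0.10) and -0.09 for HMGB3 (standard error 0.11). The 3 HMGB genes thus held 1 higher and 2 lower values, and the sign of HMGB3 turned without silenced replicate 3 (0.0045).

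In all, 8 of the 10 members had a lower value in silenced cells and 2 a higher one, and their median log2 fold change was -0.20, compared with -0.0007 over all tested genes. An adjusted p under 0.05 by edgeR with a lower level was reached by HMGN1, HMGA1 and HMGB1, 3 of the 10 members, and by 8.27% of all tested genes. No member reached it with a higher level by edgeR or DESeq2, 0 did so at an unadjusted p under 0.05, and 8.75% of all tested genes did after adjustment. The 4 members whose silenced libraries all lay below the control libraries were HMGN1, HMGN3, HMGA1 and HMGB1, where 17.5% of all tested genes had this order and 19.1% the opposite one. Since the family was picked with HMGN1's value in view, these counts describe the members and are not a test. HMGB1 did not keep an adjusted p under 0.05 without control replicate 1, control replicate 2, silenced replicate 1 or silenced replicate 3, or with library size alone as the scaling.

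**Figure D2:**
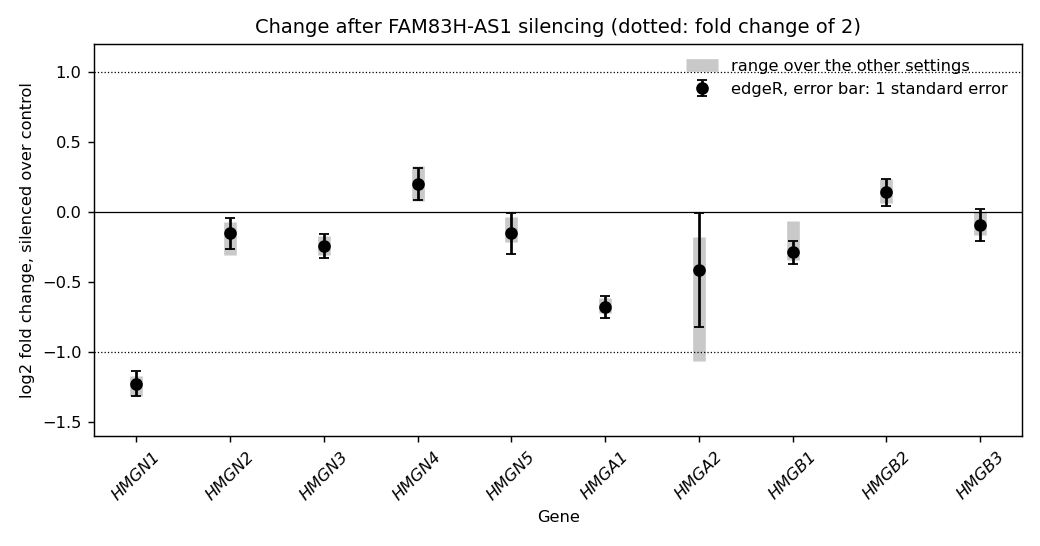
Log2 fold change of each gene, silenced over control, with 1 standard error (points, edgeR) and the range over the other settings (grey). HMGN1 lies at -1.22, beyond the dotted line for a fold change of 2, HMGA1 lies at -0.68, and the grey range of HMGA2 is the longest of the 10.

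Control replicate 2 held the highest control value for 6 members (HMGN1, HMGN3, HMGN4, HMGN5, HMGB1 and HMGB2), and silenced replicate 2 held the highest silenced value for 6 (HMGN2, HMGN3, HMGN4, HMGA1, HMGB1 and HMGB3). Without control replicate 2, the log2 fold change of HMGN5 was -0.04, that of HMGN3 was -0.17, and those of HMGN4 and HMGB2 were 0.33 and 0.24. Without control replicate 3 the value of HMGN4 was 0.08 and that of HMGN2 -0.07, and without control replicate 1 the value of HMGB2 was 0.06. The positive and negative values of these 5 genes kept their signs, but their sizes depended on single libraries.

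Levels were also compared between genes, per kilobase of merged coding-transcript exons, in the control libraries. HMGA1 stood first with 301 CPM per kb, which was 5.19 times the next gene. HMGN3 (58.0), HMGN1 (54.0), HMGN4 (48.1), HMGB2 (47.8) and HMGN2 (39.4) followed, and each neighbouring pair of these had overlapping ranges over the control libraries, so their order is not resolved. HMGB1 (9.13), HMGB3 (7.24), HMGN5 (4.66) and HMGA2 (0.099) came after them, each with a range below that of the gene before it. HMGB1 has long annotated 3′-UTRs, with 7.35 kb of merged exons compared with 1.57 kb for HMGN1, so its place per kilobase depends on which transcript ends the cells used, which the counts do not show. In silenced cells HMGN1 was at 23.0 CPM per kb. These levels leave out the copy rows.

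The copy rows hold a large part of the family's counts. There were 172 rows named as a pseudogene of a member, 37 for HMGN1, 45 for HMGN2, 48 for HMGB1, 32 for HMGB3, 8 for HMGA1, 1 for HMGN3 and 1 for HMGB2. HMGN4, HMGN5 and HMGA2 had none. Of the counts of HMGN1 and its copies together, the copies held 35.6% to 37.8% in control and 29.7% to 35.4% in silenced libraries. For HMGN2 the share was 69.8% to 76.2% in control and 64.6% to 74.0% in silenced libraries, and for HMGB1 it was 63.6% to 67.3% and 70.1% to 70.8%. The copies of HMGN2 and of HMGB1 therefore had more counts than the genes themselves in every library. For HMGB3 the share was 8.99% to 13.8% in control and 12.5% to 14.1% in silenced libraries, and for HMGA1 it was 5.31% to 7.07% and 5.56% to 7.02%.

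Sequence identity between the genes and the copies is high where the copies lie. HMGN1P38 matched 98.4% of the HMGN1 bases over its 303 bases, HMGN2P5 matched 99.6% over 273 bases, HMGB1P5 matched 97.9% over 984 aligned bases and HMGA1P3 matched 96.9% over 324 bases. The differences were spread unevenly. Of the windows of 50 bases in each copy, 30.7% in HMGN1P38 and 79.9% in HMGN2P5 occurred unchanged in its gene. The shares were 54.7% in HMGB1P5 and only 2.55% in HMGA1P3. Of all windows of 50 bases in the coding sequence, 56.7% in HMGN1, 79.9% in HMGN2, 83.3% in HMGB1, 26.9% in HMGA1 and 24.2% in HMGB3 occurred unchanged in a transcript of another gene. Over the whole transcript these shares were 18.0% for HMGN1, 34.2% for HMGN2, 15.7% for HMGB1 and 8.10% for HMGA1. HMGN4 and HMGN5 shared 0 such windows with any other gene, so no copy in this annotation held such a stretch of them. HMGN3 shared 15.0% of its windows, all with the antisense gene HMGN3-AS1, whose row had 61 counts over all 6 libraries. How reads matching several places were counted, and whether strand was used, is not given in the sources used here, so the split between a gene and its copies is uncertain for HMGN1, HMGN2, HMGA1, HMGB1 and HMGB3.

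For HMGN1 the summed copy rows and the gene were both lower in silenced libraries. The copies together were at 47.9, 53.1 and 46.4 CPM in control and 18.6, 15.4 and 18.8 CPM in silenced libraries, with no overlap. Their mean was 49.2 ± 3.50 CPM in control and 17.6 ± 1.89 CPM in silenced cells, a log2 ratio of -1.48. HMGN1P38, the most counted of them, had 380, 512 and 653 counts in control and 155, 111 and 210 counts in silenced libraries (log2 fold change -1.57, standard error 0.14). The smaller rows had means of 10 to 21.3 counts per library. HMGN1P36 (-2.02, standard error 0.39) and HMGN1P4 (-2.09, standard error 0.38) were called lower like HMGN1P38. HMGN1P37 (-1.10, standard error 0.35) did not overlap between the groups but was not called, and HMGN1P3 (-0.71, standard error 0.43) overlapped and was not called. With the copies' counts added to HMGN1 before the fit, its log2 fold change was -1.32.

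**Figure D3:**
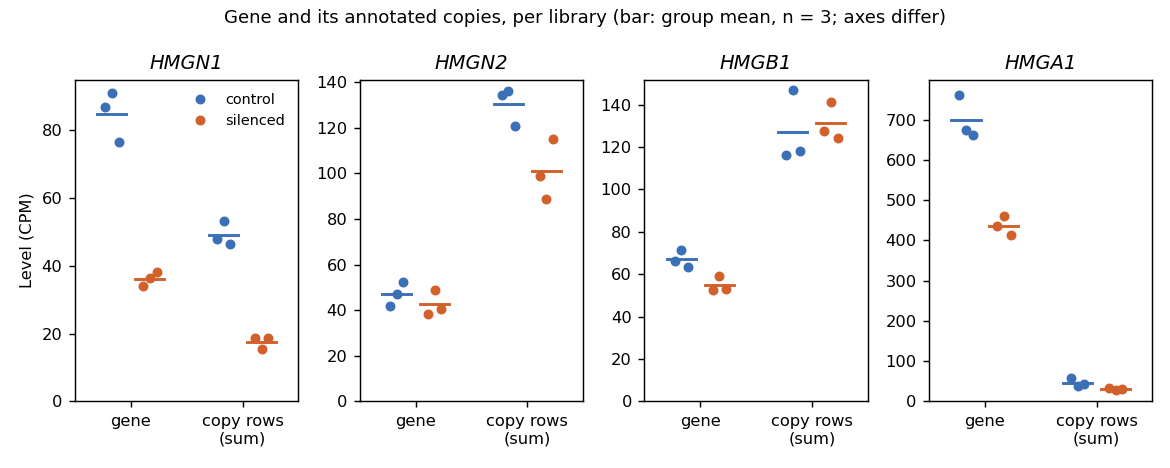
Level in CPM of HMGN1, HMGN2, HMGB1 and HMGA1 and of the sum of their copy rows, in each library, with a bar at the mean of the 3 libraries of a group and a separate axis per gene that starts at 0. The summed copies exceed the gene in HMGN2 and HMGB1, and those of HMGN1 separate the groups as the gene does.

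For HMGN2 and HMGB1 the copies changed the picture of the gene. HMGN2P5 was at 85.3 ± 10.4 CPM in control and 57.8 ± 10.8 CPM in silenced libraries, with no overlap (log2 fold change -0.56, standard error 0.13), whereas HMGN2P3, HMGN2P6 and HMGN2P41 lay between -0.16 and -0.08. HMGN2P4 was at 0.27 (standard error 0.27) and HMGN2P7 at -0.68 (standard error 0.38). The summed HMGN2 copies were at 130.5 ± 8.46 CPM in control and 101 ± 13.3 CPM in silenced libraries, and with them added, the log2 fold change of HMGN2 was -0.31 in place of -0.15, with an adjusted p under 0.05. HMGB1P5 was at 86.3 ± 10.6 CPM in control and 91.5 ± 10.8 CPM in silenced libraries (log2 fold change 0.08, standard error 0.11). HMGB1P6 (0.02), HMGB1P10 (-0.11) and HMGB1P4 (0.07) overlapped between the groups as well, while HMGB1P1 did not (-0.41, standard error 0.24). With its copies added, the log2 fold change of HMGB1 was -0.06 in place of -0.29, and its adjusted p was no longer under 0.05.

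The copies of HMGA1 were close to the gene in direction and size. HMGA1P3, HMGA1P2 and HMGA1P8 had log2 fold changes of -0.70, -0.71 and -0.66, beside -0.68 for HMGA1, and in each of them the silenced libraries were all below the control libraries. HMGA1P1 was at -0.02 (standard error 0.36) on a mean of 21.3 counts. HMGN3P1 (-0.02) and HMGB3P6 (-0.16), each the one copy of its gene with a mean count of 10 or more, overlapped between the groups. HMGB2P1 had 8 to 15 counts per library and was not tested.

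**Figure D4:**
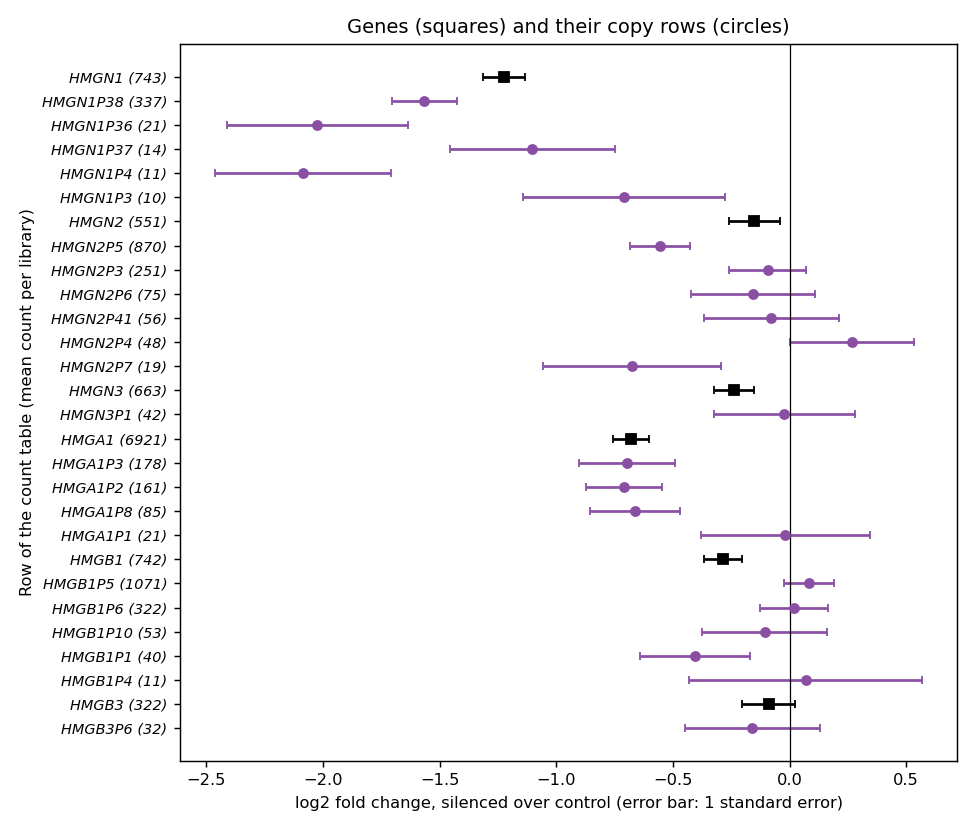
Log2 fold change, silenced over control, of the genes with tested copies (squares) and of their copy rows (circles), with 1 standard error and, in parentheses, the mean count per library. The 5 HMGN1 copies lie between -2.09 and -0.71, and the HMGB1 copies lie on both sides of 0.

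The 3′-UTRs of the members were searched on the mRNA strand for CCAATAA, a word of 7 bases picked in earlier work on these same counts because the mRNAs that hold it were lower after silencing. HMGN1 holds it in 1 of 3 annotated 3′-UTRs and HMGA1 in 5 of 5, and the other 8 members hold none. These are the members with the lowest and second-lowest log2 fold changes, -1.22 and -0.68, but since the word was chosen on these libraries this is a description. The sites are shown with the word in capitals:
HMGN1: ctgatcctcaaCCAATAAaatctcagttat
HMGA1: cagatggggcaCCAATAAcaaggagctcac

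The HMGN1 site is at base 772 of a 3′-UTR of 797 bases, in exon 6 of 6 (chr21:39342322-39342351, minus strand), and it overlaps the hexamer AATAAA, the usual polyadenylation signal, 19 bases before the annotated end of the transcript. The HMGA1 site is at base 865 of 1347, in exon 6 of 6 (chr6:34245738-34245767, plus strand), and does not overlap that hexamer. Of the 11556 tested genes with an annotated 3′-UTR, 12.7% hold CCAATAA, and among 3′-UTRs of a length close to that of HMGN1 or HMGA1 the shares were 5.46% and 7.54%. The word was found 0 times in each copy with a mean count of 10 or more. HMGN1P38, HMGN2P5 and HMGA1P3 are annotated over the coding part alone, so for them the search could not cover a 3′-UTR. HMGN1P36, HMGN1P37, HMGN1P4, HMGN1P3, HMGA1P2 and HMGA1P8 are 290 to 324 bases long. None of them is longer than the coding sequence of its gene (303 bases in HMGN1, 324 in HMGA1). Their 0 therefore says nothing about the word.

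HMGA2 is known as a target of let-7, so the complement of the let-7 seed, CTACCTC, was searched in the same way. The mature let-7a-5p sequence (RefSeq) is shown with its seed, bases 2 to 8, in capitals:
let-7a-5p: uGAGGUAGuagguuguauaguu

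HMGA2 holds up to 4 matches, in 1 of 7 annotated 3′-UTRs, HMGA1 holds 1 match in each of 5, and the other 8 members hold none. The match is present in 12.3% of the 11556 tested genes with an annotated 3′-UTR. Among 3′-UTRs of a length close to that of HMGA2 or HMGA1 the shares were 36.8% and 8.89%. Mature microRNAs were not measured in these libraries.

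Genes that are not members were counted by list, with 7 lists of partners and related genes and 1 of proliferation markers. Together the lists held 158 genes, of which 24 were not tested. Of 134 tested genes in these 8 lists, 12 had an adjusted p under 0.05 by edgeR with a higher level and 10 with a lower level (16.4% in all, beside 8.75% and 8.27% of all tested genes), and 3 were called, all lower (0.997% of all tested genes were). The 22 genes became 8 without silenced replicate 1, 12 without control replicate 3, 13 without silenced replicate 3, 15 without control replicate 2 and 16 without control replicate 1 or silenced replicate 2. Linker histones, which share the nucleosome with HMGN proteins, had the lowest median of the 8 lists, -1.11 on the log2 scale, and all 6 tested genes had lower values. HIST1H1C fell from 28.5, 21.4 and 23.8 CPM to 11.1, 6.74 and 11.8 CPM (log2 fold change -1.30, standard error 0.18, adjusted p = 0.00138 by edgeR). HIST1H1E had 4.21, 3.53 and 10.6 CPM in control and 2.53, 2.49 and 2.15 CPM in silenced libraries (log2 fold change -1.39, standard error 0.39, adjusted p = 0.0315). HIST1H1B had 1.54, 2.24 and 4.72 CPM in control and 0.682, 0.831 and 1.26 CPM in silenced libraries (log2 fold change -1.63, standard error 0.44, adjusted p = 0.0279). Control replicate 3 was the highest control library for HIST1H1E and HIST1H1B, and without it their log2 fold changes were -0.70 (adjusted p = 0.101) and -1.01 (adjusted p = 0.124). HIST1H1D also passed the adjusted p (-0.91, adjusted p = 0.0428), but not without control replicate 1 (0.0523), control replicate 3 (0.175) or any 1 silenced library (0.0542 to 0.139), whereas H1FX (-0.36, adjusted p = 0.0622) and H1F0 (-0.16, adjusted p = 0.325) did not. HIST1H1C was the one list gene called without control replicate 3, without silenced replicate 1 or without silenced replicate 2, and HIST1H1E was not called without silenced replicate 3 either (adjusted p = 0.0809). Most transcripts of the replication-dependent H1 genes have no poly(A) tail, and how RNA was selected is not given in the sources used here.

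Transcription-coupled repair genes and other HMGN1 partners, such as the Cockayne syndrome gene ERCC6, made up a list of 27 tested genes. Of these, 0 passed the adjusted p by edgeR, with 5 at an unadjusted p under 0.05 and 0 passing by DESeq2, and their median log2 fold change was -0.01, with 12 higher and 15 lower values. Of 19 chromatin remodelling and scaffold genes, ATRX, a helicase-like remodeller of repeats, rose (0.29, adjusted p = 0.0197) and CHD3, a NuRD ATPase, fell (-0.23, adjusted p = 0.0347), and the other 17 did not pass. Neither passed throughout, since ATRX was at an adjusted p between 0.0503 and 0.0815 without control replicate 2, control replicate 3, silenced replicate 1 or silenced replicate 3, and CHD3 between 0.0623 and 0.0938 without any 1 library.

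In the list around HMGA2 and let-7, 5 of 20 tested genes rose and 1 fell, beside 8.75% and 8.27% of all tested genes. SNAI2, a transcription factor of epithelial-mesenchymal transition, rose from 8.11, 9.48 and 11.7 CPM to 17.7, 15.7 and 18.1 CPM (log2 fold change 0.80, standard error 0.15, adjusted p = 0.00485 by edgeR). SMAD3, which carries TGF-beta signals to the nucleus, rose from 84.7 ± 8.49 to 121.6 ± 0.683 CPM (0.52, adjusted p = 0.00258), and the receptor TGFBR1 rose from 17.9 ± 1.89 to 23.2 ± 1.81 CPM (0.38, adjusted p = 0.0401). TGFBR1 did not pass without any 1 library other than control replicate 2 (adjusted p between 0.0594 and 0.136), and SNAI2 and SMAD3 passed in all 16 other settings.

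Of 20 listed HMGB1 receptors, adaptors and binding partners, 8 were not tested. Among the 12 tested, IRAK1, a kinase of Toll-like receptor signalling, fell (-0.33, adjusted p = 0.0181 by edgeR) and 11 did not pass. In the SET complex and among HMGB2 partners, 2 of 10 genes fell. The nucleoside diphosphate kinase NME1 went from 221 ± 24.3 to 142 ± 11.4 CPM (-0.63, adjusted p = 0.00162 by edgeR). The Ku subunit XRCC6 went from 407 ± 14.6 to 333 ± 16.0 CPM (-0.29, adjusted p = 0.0155 by edgeR). Of all tested genes, 8.27% had an adjusted p under 0.05 with a lower level. IRAK1 did not pass without control replicate 1, silenced replicate 1 or silenced replicate 2 (adjusted p between 0.0517 and 0.0572), nor did XRCC6 without control replicate 2 or silenced replicate 1 (0.0593 and 0.0885). Among 27 tested proteins with an HMG box outside the HMGB group, 4 rose and 1 fell by the same limit, 18.5% in all, a share close to that over all tested genes (8.75% higher and 8.27% lower). HBP1, a repressor of cell cycle genes, rose from 23.5 ± 0.658 to 33.3 ± 3.09 CPM (0.50, adjusted p = 0.00642), the Wnt effector TCF7L2 rose (0.42, adjusted p = 0.0250), and UBTF, the activator of ribosomal RNA genes, fell (-0.36, adjusted p = 0.0116). TCF7L2 did not pass without control replicate 1, control replicate 2, silenced replicate 1 or silenced replicate 3 (adjusted p between 0.0607 and 0.0877), nor UBTF without silenced replicate 1 (0.0664).

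**Figure D5:**
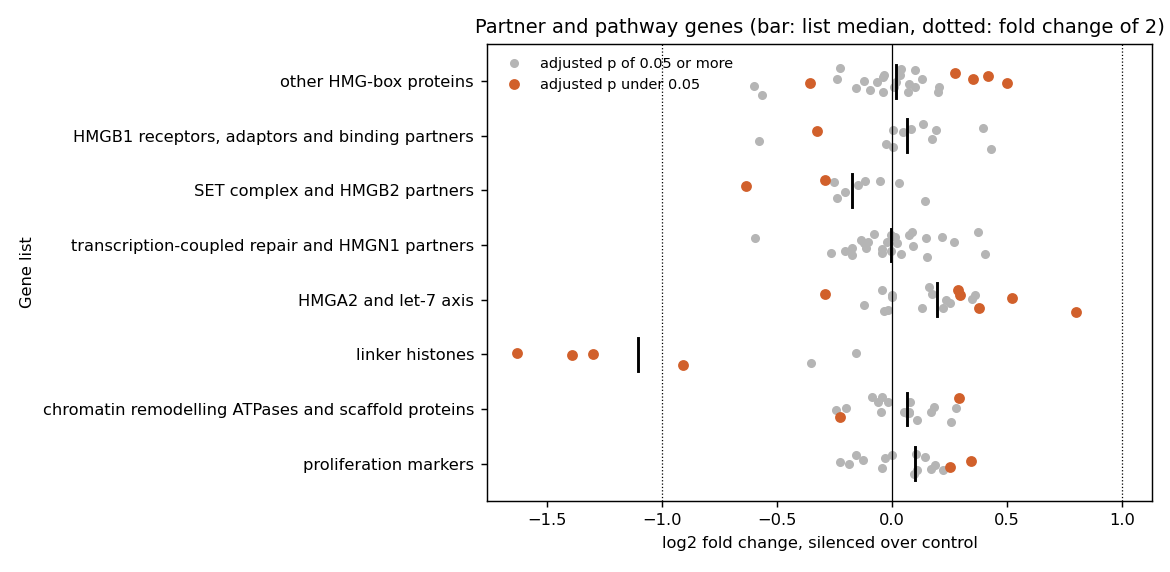
Log2 fold change, silenced over control, of the tested genes in each of the 8 lists, with genes at an adjusted p under 0.05 in orange and a bar at the list median. Linker histones have a median of -1.11, and the medians of the other 7 lie between -0.18 and 0.20.

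The marker lists were read beside these results. The A549 epithelial markers, led by KRT8, summed to 5496 to 5834 CPM in control and 4644 to 4744 CPM in silenced libraries, and markers of other cell types summed to 39.2 to 46.6 CPM and 42.5 to 53.0 CPM, with CD3E and LYZ at 0 in every library and COL1A1 the highest. Of 11 tested epithelial markers, 2 rose and 3 fell by edgeR, beside 8.75% and 8.27% of all tested genes. Among them were AKR1B10, from 0.842 to 2.09 CPM on 9 to 28 counts per library (1.31, adjusted p = 0.0135 by edgeR), and KRT7 (-0.57, adjusted p = 0.00116). Both were named after their values were seen. Of 5 tested markers of other cell types, 0 passed by edgeR, with 1 at an unadjusted p under 0.05, and 0 passed by DESeq2. Proliferation markers summed to 3746 to 3925 CPM in control and 4031 to 4164 CPM in silenced libraries. These sums are weighted to abundant genes such as MCM2 (mean 879 CPM), and the list was mixed. Of its 16 genes, 9 had a higher value and 7 a lower one. At an unadjusted p under 0.05 by edgeR, 2 were higher and 3 lower, and 2 higher and 1 lower passed by DESeq2. CENPF (0.34, adjusted p = 0.00766) and TK1 (0.25, adjusted p = 0.0441) rose and 14 of the 16 did not pass by edgeR. TK1 did not pass without control replicate 2, control replicate 3, silenced replicate 1 or silenced replicate 3 (adjusted p between 0.0885 and 0.180). Thus the sums of the epithelial and proliferation markers did not overlap between the groups, and their part in the changes of the HMG genes was not tested. In bulk RNA, fewer cells with a transcript and less transcript per cell cannot be told apart.

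Finally, the genes most like HMGN1 in pattern were listed, by Pearson's r of log2 CPM over the 6 libraries among 12120 genes with a mean count of 50 or more. They were STRADA (r = 0.999), ANAPC5 (r = 0.997), PPIB (r = 0.997), PSMC1P1 (r = 0.996) and BANF1 (r = 0.996), with log2 fold changes of -0.32, -0.16, -1.23, -0.42 and -0.39. Among the members, HMGA1 (r = 0.969), HMGB1 (r = 0.918) and HMGN3 (r = 0.803) were closest to HMGN1, and HMGN4 and HMGB2 had r of -0.491. These r values are set mostly by the difference between the groups, which all 6 points share, and take no account of size.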

How the data were processed

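The authors deposited raw counts per gene for 6 libraries, made with an Ion Proton RNA-Seq kit, counted per gene with MapSplice and compared with DESeq. The submitters' processing notes name GRCh37. The rules for reads with several matches and for strand are not given in the sources used here. Genes that passed filterByExpr (15250 of 40173) were fitted with edgeR 4.0.16 (quasi-likelihood test, TMM scaling, Benjamini-Hochberg adjustment over all tested genes) in R 4.3.3, with no covariate. Calls required both a fold change over 2 and an adjusted p under 0.05. The totals of 9738291 to 17742643 counts per library set the precision. Groups came from the treatment label.

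The members and gene lists were chosen with earlier results of these data known. The text names all members, FAM83H-AS1, copy rows with a mean count of 10 or more, called list genes and, per list, up to 3 further genes with an adjusted p under 0.05, non-overlapping groups and the largest changes, and the 5 genes most correlated with HMGN1. HIST1H1D, H1FX, H1F0, ERCC6 and the cell markers were added after their values were seen.

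Copies were rows named as a member followed by P and a number, aligned with blastn 2.17.0. Positions, lengths and sequences came from GENCODE release 29 (GRCh38), since the table holds no coordinates. Alternatives were DESeq2 1.42.0, other scalings, filters and limits, thinning, a replicate block, copies added or left out, and leaving out each library. The scripts were tested on simulated data.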

Additional observations from a re-analysis of the deposited data

How the results depend on the processing

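HMGN1 was the one member called under all 16 alternatives, and FAM83H-AS1 kept its call in all of them. The total of called genes moved from 326 to 583 when every gene with at least 1 count was tested, to 199 with at least 10 counts in every library and to 148 at an adjusted p under 0.01, and it lay between 200 and 335 with 1 library left out, the lowest without silenced replicate 1. List genes called went from 3 to 1 at an adjusted p under 0.01, and to between 1 and 4 with 1 library left out. Among members, HMGB1 moved to -0.06 with the copies added and HMGA2 to -1.06 without silenced replicate 3, and the cause was not tested. HMGA2 could not be fitted with at least 10 counts in every library.

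Replicate numbers are shared between the groups, but the labels do not say that they mark pairs. The main fit therefore had no pairing, and the replicate block was an alternative. The deviations of same-numbered libraries correlated at 0.12, 0.15 and 0.07, and those of unlike number between -0.11 and 0.02. Each library thus correlated best with its own number, and a pairing was not excluded. With the replicate block, 419 genes were called, beside 326 in the main fit. Among them were 1 member and 3 list genes, and FAM83H-AS1 was at -1.71. The block changed no call among the members. HMGA2 is limited by depth, with at most 27 counts in a library.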
